A study of Mus musculus with 7 samples.

Results

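The genes described here mark the cells of brain blood vessels: 31 endothelial genes and 8 genes of mural cells (5 of pericytes and 3 of smooth muscle). They are 39 of the 21885 protein-coding genes in a table of 55416 genes, and were taken by symbol from a fixed list. That list was put together with the differences between groups in these same counts in view. The differences of the 39 genes between groups are therefore given as descriptions, and no test over them is offered.

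RNA of the prefrontal cortex (PFC) of female wild-type C57BL/6 mice was sequenced in 3 Ctr, 2 Ref and 2 Alt libraries. Ctr mice received an empty recombinant adeno-associated virus (rAAV), Ref mice an rAAV carrying the human long noncoding RNA PAXIP1-AS1 with the C allele, and Alt mice the same RNA with the G allele. All vectors, that of Ctr included, carried an EGFP reporter under the human synapsin promoter, which is active in neurons, and were injected into the PFC on both sides. The vector was thus directed at neurons and not at the vessel cells described here. The age of the sequenced mice is not stated, the human transcript was not analysed here, and nothing states whether each library came from 1 animal, so p-values measure the spread between these libraries.

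Endothelial cells of the brain form the blood-brain barrier. They are sealed to each other by tight junctions, they carry nutrients inwards with dedicated transporters, and they pump drugs and toxins back into the blood. Pericytes wrap the capillaries and smooth muscle wraps the arterioles, and signals such as VEGF, angiopoietin, PDGF-B and Notch pass between these cells.

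The libraries held 16655697 to 20750857 counts, with Alt at 16655697 and 18673575. The scaling factors (TMM) ran from 0.924 for Alt replicate 1 to 1.05 for Ref replicate 1. Replicates differed by more than sampling noise in every group, where the chi-square of their counts, divided by its degrees of freedom, was 19.7 to 26.7 within Ctr and Ref and 62.9 between the Alt libraries, which were the least alike. All 39 genes passed the filter on low counts, as did 17254 genes in all.

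Vascular markers were present in every library. Levels between genes were compared in TPM (transcripts scaled by gene length to a fixed total in each library). Rgs5, a signalling regulator of pericytes, led with a median of 180.3 TPM over the 7 libraries (range 144 to 215), followed by the glucose transporter Slc2a1 at 161 TPM (133 to 215), the membrane protein gene Itm2a at 142 TPM (109 to 169) and the pericyte gene Vtn at 97.4 TPM (92.1 to 123). The ranges of Rgs5, Slc2a1 and Itm2a overlapped, so their order is not firm. Cldn5, the main tight junction claudin of the barrier, had a median of 81.3 TPM (47.6 to 132), and the lowest endothelial gene was the sialomucin gene Emcn at 5.40 TPM (3.72 to 6.27). Pdgfrb, the receptor by which pericytes are recruited, had a median of 18.9 TPM (17.1 to 22.4).

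The smooth muscle label rested on a pair of genes, since the third was near the floor. Tagln, an actin-binding protein of smooth muscle, stood at 0.699 TPM, with only 3 to 12 counts in a library, while Acta2, smooth muscle actin, had 34.6 TPM and Myl9, the myosin light chain, 37.1 TPM. In GENCODE vM21, 11 of the 39 genes share exon sequence with another gene, and for 5 of them (Egfl7, Eng, Nos3, Pltp and Tagln) that gene is protein-coding, as Pcsk7 is beside Tagln. Whether counting used strand is not given, so values of those genes are less certain, as are those of Ly6a and Ly6c1, which belong to a family of similar genes.

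**Figure D1:**
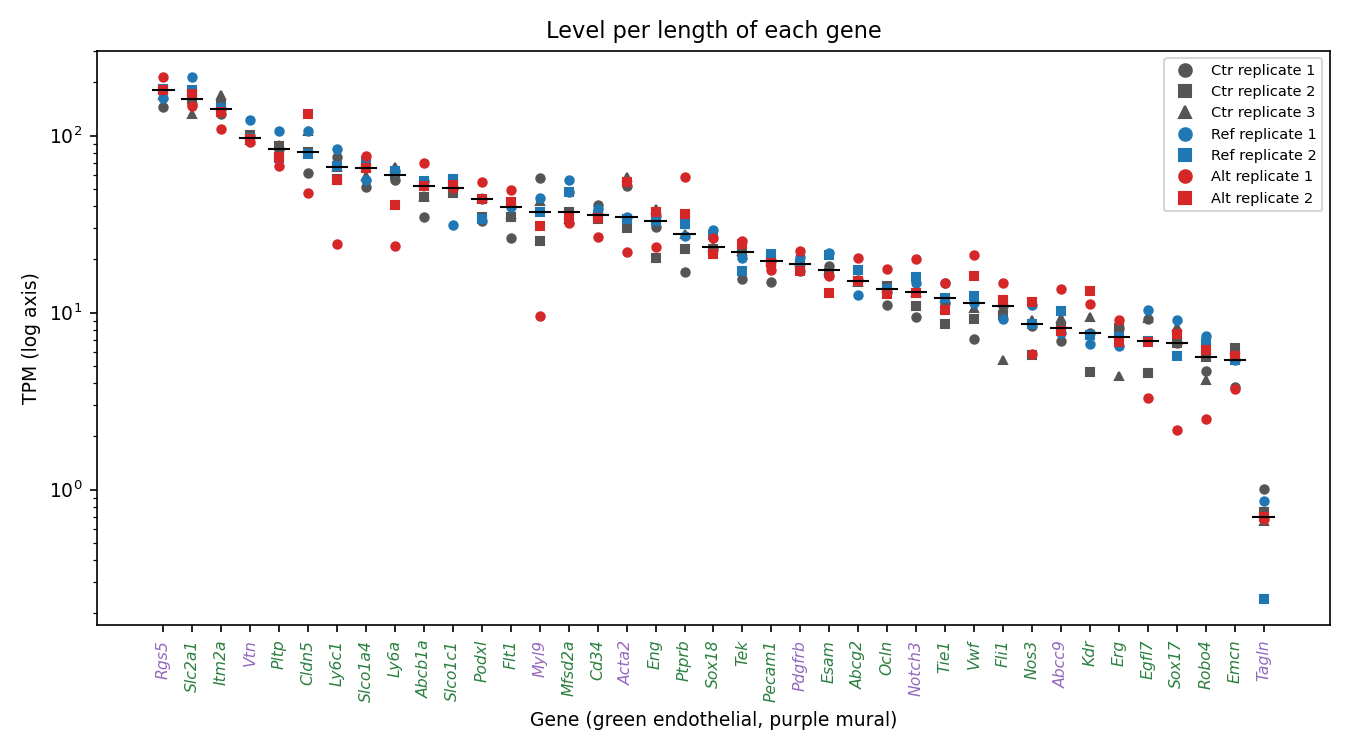
TPM (log axis) of the 39 genes, ordered by their median, with 1 point per library, grey for Ctr, blue for Ref and red for Alt, and a bar at the median of the 7 libraries. Endothelial and mural genes are mixed along the order from Rgs5 to Tagln, and Alt replicate 1 gives the lowest points for Myl9, Ly6c1, Ly6a and Sox17.

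The starts of some of these genes are shown as examples of what RefSeq gives around them. RefSeq windows of 300 bases (250 before and 50 after the annotated start, GRCm38.p6) were available for 27 of the 39 genes, 21 endothelial and 6 mural. The letters CAGGAA are a form of the sites for ETS factors such as the members Erg and Fli1, and other forms were not counted. CAGGAA occurred on either strand at 12 of 21 endothelial genes (57.1%), at 2 of 6 mural genes (33.3%) and at 33.4% of the 27025 genes with a window. A CArG box, the site of serum response factor, occurred at 1 mural gene (16.7%), at no endothelial gene and at 1.81% of all genes. The remaining motifs were AACAAT at 4 endothelial genes (19%; 12.2% of all genes), GATAAG at 5 (23.8%; 8.58%), TATAAA at 7 (33.3%; 15.7%) and GGGCGG at 10 (47.6%; 38.2%), and they may overlap each other. At the 6 mural genes AACAAT did not occur, and GATAAG occurred at 2 (33.3%), TATAAA at 1 (16.7%) and GGGCGG at 3 (50%). These counts describe letters in a window and not binding, and a gene with several annotated starts counts once if any window holds the letters. Windows of the angiopoietin receptor Tek and of its relative Tie1 are given for the ETS letters (in capitals, TTCCTG where CAGGAA lies on the other strand), that of the VEGF receptor Flt1 for its TATA letters (in capitals), and that of Myl9 for the CArG box (in capitals). They lie at chr4:118489800-118490099 (minus strand) for Tie1, chr4:94739039-94739338 (plus) for Tek, chr5:147725962-147726261 (minus) for Flt1 and chr2:156775214-156775513 (plus) for Myl9.
Tie1: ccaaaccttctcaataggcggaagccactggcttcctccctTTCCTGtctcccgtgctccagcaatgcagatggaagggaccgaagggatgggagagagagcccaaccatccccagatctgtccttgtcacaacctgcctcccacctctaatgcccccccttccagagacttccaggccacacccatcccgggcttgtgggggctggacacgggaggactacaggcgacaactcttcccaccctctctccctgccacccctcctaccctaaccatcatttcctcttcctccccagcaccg
Tek: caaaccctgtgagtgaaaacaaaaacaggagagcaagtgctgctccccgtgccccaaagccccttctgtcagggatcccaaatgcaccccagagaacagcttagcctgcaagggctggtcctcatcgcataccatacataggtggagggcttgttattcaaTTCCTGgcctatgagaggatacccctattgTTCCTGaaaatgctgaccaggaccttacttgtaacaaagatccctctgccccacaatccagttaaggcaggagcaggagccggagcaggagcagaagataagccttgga
Flt1: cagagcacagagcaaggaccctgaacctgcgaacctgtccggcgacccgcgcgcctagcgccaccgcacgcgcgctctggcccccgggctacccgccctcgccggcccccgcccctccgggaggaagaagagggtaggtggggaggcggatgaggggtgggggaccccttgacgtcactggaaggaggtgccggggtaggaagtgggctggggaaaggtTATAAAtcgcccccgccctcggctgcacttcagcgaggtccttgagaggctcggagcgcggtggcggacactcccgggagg
Myl9: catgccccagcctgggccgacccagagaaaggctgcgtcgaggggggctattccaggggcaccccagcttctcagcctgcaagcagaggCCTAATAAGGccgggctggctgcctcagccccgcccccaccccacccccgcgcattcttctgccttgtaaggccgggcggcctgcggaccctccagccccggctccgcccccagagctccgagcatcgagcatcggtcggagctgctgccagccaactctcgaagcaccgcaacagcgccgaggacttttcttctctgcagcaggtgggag

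In Alt compared with Ctr, the receptor genes Ptprb, Kdr and Flt1 and the clotting factor gene Vwf lay above Ctr and the surface gene Ly6a below it, while the junction genes went both ways. Values are TMM-scaled counts relative to library size (CPM), and differences are log2 fold changes ± SE from edgeR. Of the 39 genes, 24 had a positive and 15 a negative difference, and the median was 0.14 against -0.03 over all genes tested, of which 47.9% were positive. With the correction for gene length given later 30 of the 39 were positive, beside 49% of all genes. Unadjusted p was under 0.05 for 7 genes that were higher (Ptprb, Vwf, Flt1, Kdr, Abcb1a, Podxl and Notch3) and for 1 that was lower (Ly6a), beside 9.45% and 10.3% of all genes in those directions. The libraries did not overlap for 13 genes that were higher (16.8% of all genes) and 3 that were lower (18.1%, and 35% in either direction). No gene of the table passed an FDR of 0.05 in edgeR, where 3414 genes (19.8%) had an unadjusted p under 0.05, and DESeq2 called 1123 of the 11902 genes to which it gave an adjusted p (9.44%), among them the members Vwf, Ptprb, Abcb1a, Flt1 and Kdr. As the genes were chosen with this contrast in view, nothing is read from these counts.

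Of the 7 endothelial receptors, Ptprb, Kdr and Flt1 were among the genes with the largest positive differences, and the others ranged from -0.06 (Robo4) to 0.38 (Tek). Ptprb, the phosphatase that restrains the angiopoietin receptor, measured 67.5, 91.1 and 104 CPM in Ctr, 102 and 137 in Ref and 223 and 155 in Alt. Both Alt libraries lay above every other library, and the difference from Ctr was 1.11 ± 0.22 (2.16-fold). Kdr, the main VEGF receptor, measured 20.6, 12.5 and 24 CPM in Ctr, 16.8 and 22 in Ref and 29.1 and 38.4 in Alt. Only Alt stood apart for Kdr, since Ref overlapped Ctr (differences of 0.83 ± 0.27 in Alt and 0.03 ± 0.27 in Ref). Flt1, the other VEGF receptor, measured 106, 140.3 and 136 CPM in Ctr, 149.5 and 185 in Ref and 192 and 184 in Alt. For Flt1 both Ref and Alt lay above the 3 Ctr libraries (differences of 0.39 ± 0.17 and 0.56 ± 0.17), and with the length correction the Alt difference was 0.20 ± 0.14 and no longer had an unadjusted p under 0.05.

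The remaining receptors were less uniform. Tek, which binds angiopoietins, was above Ctr in both Alt libraries (34.4 and 37 CPM against 21.6, 30.9 and 29.4), and its relative Tie1 was not (20.9 and 16.3 against 16.7, 12.7 and 16.7). Eng, a co-receptor of TGF-beta, and the guidance receptor Robo4 both had Alt libraries on opposite sides of the Ctr mean. Robo4 measured 3.84 and 10.5 CPM in Alt, 7.40, 8.91 and 6.18 in Ctr and 11 and 11.5 in Ref. The median over the 7 receptors, taken in each library as the log2 difference from the Ctr mean, was 0.45 and 0.49 in Alt, 0.24 and 0.34 in Ref, and 0.00 to 0.13 in Ctr. The receptors thus did not overlap between the 3 groups by this measure, which the choice of genes favours.

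Vwf, the clotting factor stored by endothelium, measured 33.8, 44.2 and 47.9 CPM in Ctr, 51.6 and 64.3 in Ref and 98.1 and 82.8 in Alt. Its Alt libraries lay above the rest and its difference from Ctr was 1.11 ± 0.19, the size found for Ptprb. The other secreted proteins and enzymes were not set apart from Ctr in this way. Egfl7, a secreted matrix factor, measured 9.78, 4.87 and 9.29 CPM in Ctr, 10.4 and 7.96 in Ref and 3.38 and 7.81 in Alt, the nitric oxide synthase gene Nos3 had Alt libraries of 6.89 and 15.3 around Ctr values of 10.3, 7.14 and 10.5, and the lipid transfer protein gene Pltp was slightly below Ctr in Alt (49.9 and 62 against 64.3, 67 and 63.5).

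Among the transporters, the drug efflux pump Abcb1a (P-glycoprotein) was the furthest above Ctr in Alt. It measured 56.4, 73.6 and 69.95 CPM in Ctr, 85.7 and 98.6 in Ref and 111 and 91 in Alt, so that every Ref and Alt library exceeded every Ctr library (differences of 0.47 ± 0.17 and 0.60 ± 0.17). Slc2a1, the glucose carrier, measured 156, 168 and 130.5 CPM in Ctr, 212 and 207 in Ref and 149 and 193 in Alt. Here Ref was above Ctr, while Alt had 1 library inside the Ctr range and 1 above it. Mfsd2a, a lipid carrier that keeps transcytosis low, measured 32.1, 24.8 and 21.2 CPM in Ctr, 35.4 and 34.9 in Ref and 20.9 and 24.7 in Alt and was above Ctr in Ref and lower in Alt than in Ref. The organic anion carriers Slco1a4 and Slco1c1 and the efflux pump Abcg2 had differences of 0.33 ± 0.18, 0.09 ± 0.25 and 0.28 ± 0.21 between Alt and Ctr.

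The 7 junction and adhesion genes had a median difference of 0.08 between Alt and Ctr, 4 of them positive and 3 negative. For Cldn5 the Alt libraries were the lowest and the highest of the 7, with 25.9, 34.4 and 42.1 CPM in Ctr, 42.5 and 36.1 in Ref and 19.4 and 60.1 in Alt. The Alt mean for Cldn5 was 39.8 ± 28.8 CPM (SD, n = 2) and the Ctr mean 34.1 ± 8.11 (SD, n = 3). Podxl, a sialomucin of the luminal surface, was above Ctr in both Alt libraries (0.46 ± 0.16). Ocln and Pecam1, a tight junction protein and an adhesion molecule, had differences of 0.27 ± 0.22 and 0.08 ± 0.20, and Esam, Cd34 and Emcn, which are further adhesion and surface molecules, had differences of -0.23 ± 0.21, -0.24 ± 0.18 and -0.13 ± 0.32. Among the transcription factors, Fli1 was above Ctr in both Alt libraries (0.64 ± 0.32), its relative Erg overlapped Ctr (0.24 ± 0.34), and Sox18 differed by 0.10 ± 0.22. Sox17, a factor of arterial endothelium, was at 2.99 and 11.7 CPM in Alt around 9.58, 9.55 and 11.1 in Ctr, a single low library.

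**Figure D2:**
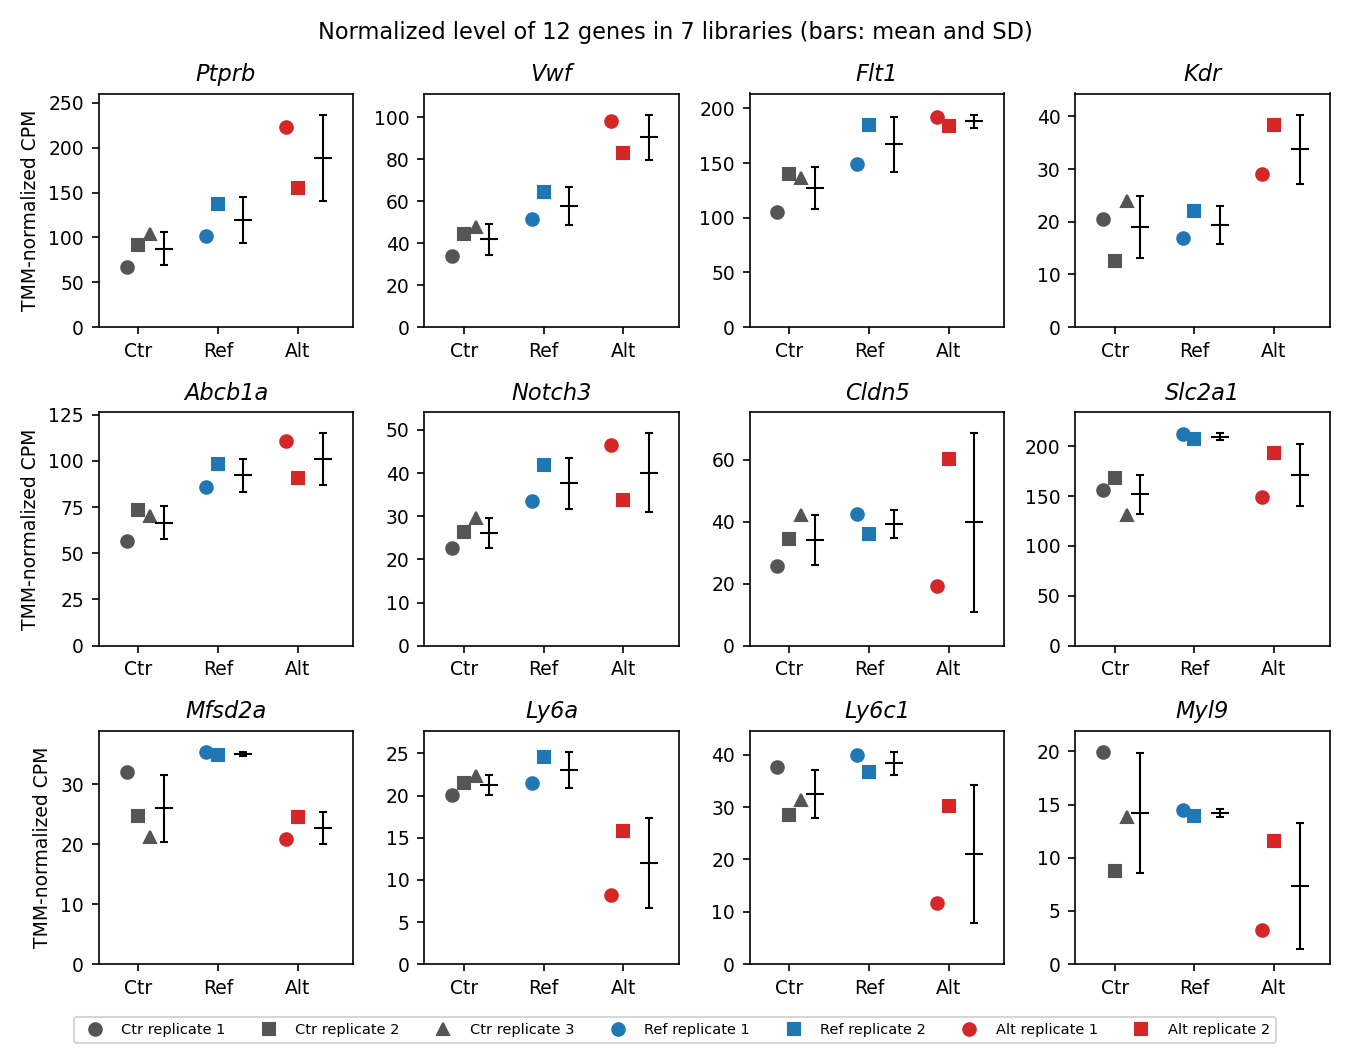
TMM-normalized CPM (linear axes from 0) of 12 genes in the 7 libraries, with the mean and SD of each group as bars beside the points. Ptprb, Vwf and Kdr have both Alt libraries above all others, Ly6a has both Alt libraries below all others, and for Cldn5 the Alt libraries are at opposite ends.

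The small surface proteins Ly6a and Ly6c1, used as markers of mouse brain endothelium, and Itm2a had negative differences between Alt and Ctr, that of Itm2a positive with the length correction (0.10 ± 0.16). Ly6a measured 20.01, 21.5 and 22.3 CPM in Ctr, 21.5 and 24.6 in Ref and 8.19 and 15.8 in Alt. Both Alt libraries were below all 5 others, and the difference from Ctr was -0.82 ± 0.27. Ly6c1 measured 37.6, 28.5 and 31.4 CPM in Ctr, 39.9 and 36.8 in Ref and 11.8 and 30.3 in Alt (-0.62 ± 0.32), where Alt replicate 1 was low and Alt replicate 2 lay inside the Ctr range. Itm2a measured 54.4 and 76.6 CPM in Alt and 68.8, 77.3 and 82.5 in Ctr (-0.22 ± 0.18).

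Of the mural genes, 4 of 5 pericyte genes and none of the 3 smooth muscle genes had a positive difference between Alt and Ctr. Notch3, the Notch receptor of mural cells, measured 22.7, 26.2 and 29.7 CPM in Ctr, 33.5 and 41.8 in Ref and 46.6 and 33.7 in Alt, so that Ref and Alt were above all Ctr libraries (0.52 ± 0.21 and 0.61 ± 0.21). Rgs5 was above Ctr in both Alt libraries (281 and 265 CPM against 195, 245 and 215), and the potassium channel subunit gene Abcc9 was high in 1 Alt library only (32.5 and 21 against 17.1, 20.4 and 21.8). Pdgfrb was nearly level, with 28, 30.8 and 30.1 CPM in Ctr, 31.7 and 33.6 in Ref and 35.3 and 30.1 in Alt, and Vtn, the matrix protein vitronectin, differed by -0.01 ± 0.16. The smooth muscle genes had a median difference of -0.19, with Alt libraries that overlapped Ctr, and with the length correction the median was 0.03 and Acta2 and Tagln turned positive (0.03 ± 0.29 and 0.13 ± 1.34). Myl9 measured 19.96, 8.76 and 13.8 CPM in Ctr, 14.5 and 14 in Ref and 3.19 and 11.5 in Alt, Acta2 measured 34.1, 19.7 and 36 CPM in Ctr, 21.4 and 24.1 in Ref and 13.9 and 38.5 in Alt, and Tagln was too rare to compare.

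The endothelial and mural lists differed little in Alt compared with Ctr. The median log2 fold change was 0.17 over 31 endothelial genes and 0.07 over 8 mural genes, a gap of 0.11 where the gap varied by an SD of 0.0795 between libraries of a group. Library by library, the endothelial median was 0.00 to 0.08 in Ctr, 0.24 and 0.32 in Ref, and -0.02 and 0.23 in Alt, and the mural median was -0.02 to 0.03 in Ctr, 0.07 and 0.16 in Ref, and 0.07 and 0.10 in Alt. Without Alt replicate 2 the endothelial median was -0.03 and the gap -0.09, and without Ctr replicate 2 or 3 the gap turned to -0.01 or -0.03. Summed CPM of the endothelial genes was 1250.1 to 1362 in Ctr, 1464 and 1678 in Ref, and 1580 and 1688 in Alt, whereas summed TPM, which weighs long genes less, was 1067 to 1198 in Ctr, 1308 and 1221 in Ref, and 1074 and 1212 in Alt. The place of Alt relative to Ctr thus differed between these sums, which differ in the scaling by length and in the TMM factors, used for CPM alone. Which of these mattered was not tested. In such bulk tissue, more vessel cells and more RNA per vessel cell cannot be told apart.

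**Figure D3:**
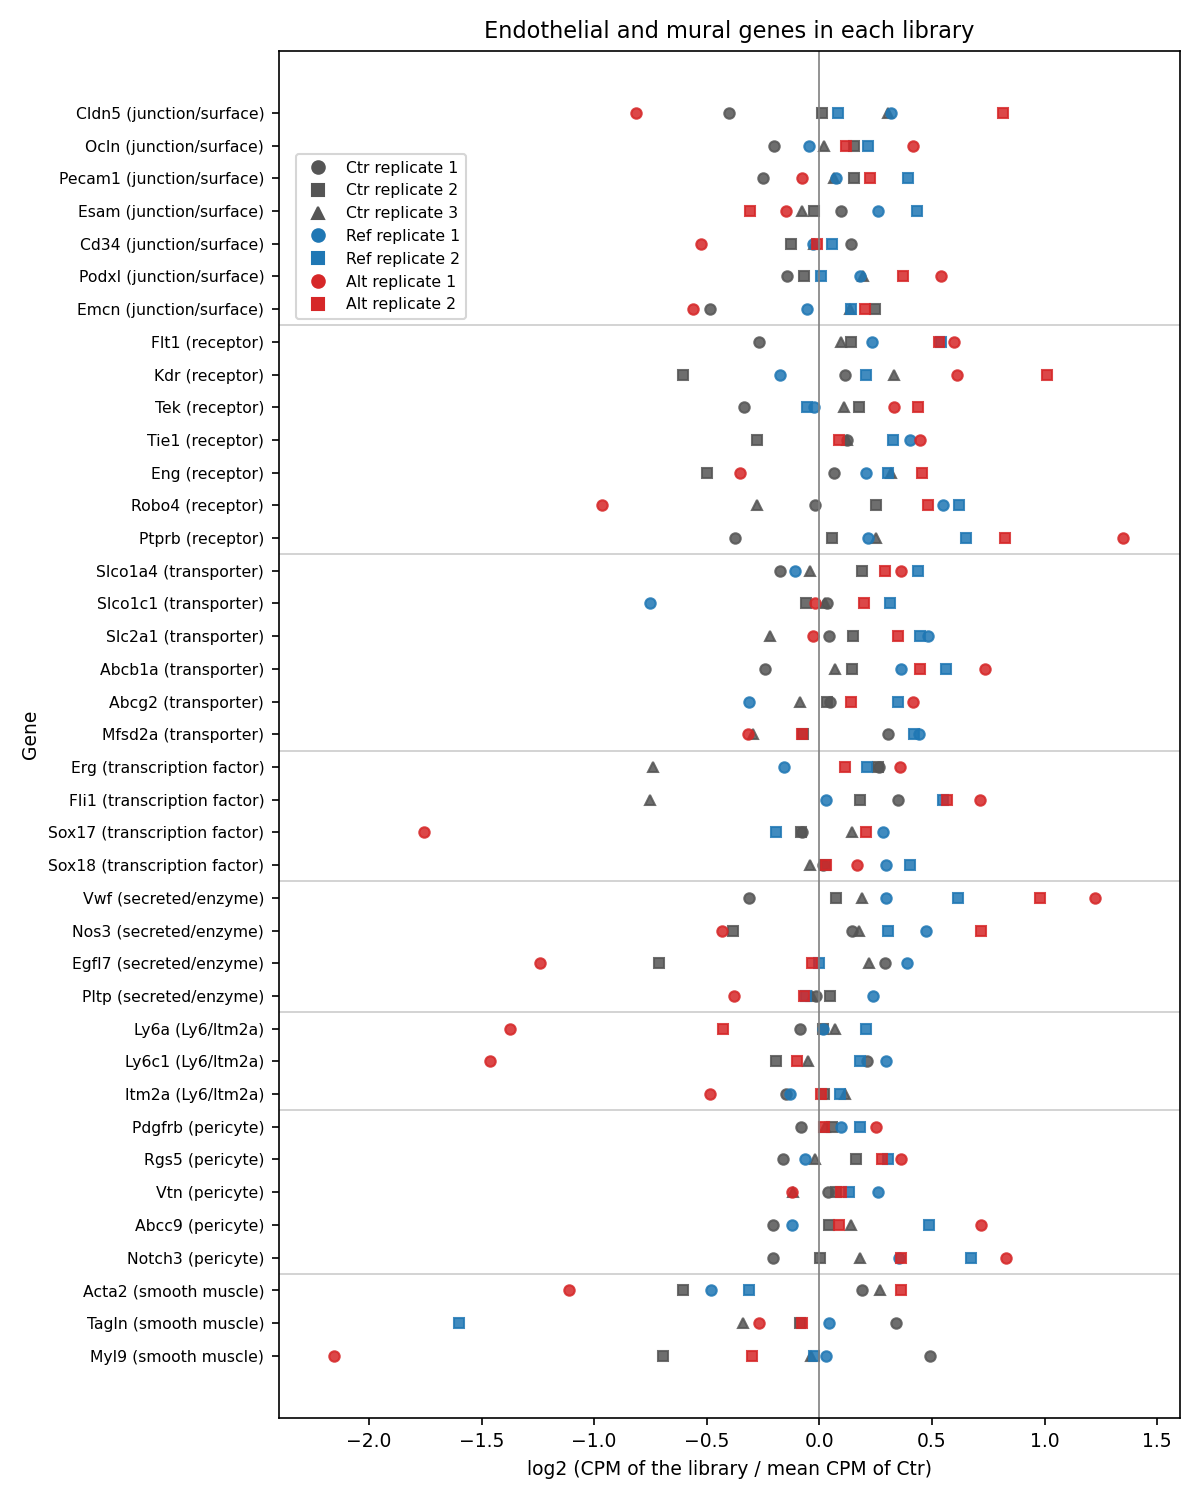
Log2 of the CPM in each library over the mean CPM of Ctr for the 39 genes, grouped by role, with 1 point per library (grey Ctr, blue Ref, red Alt). Red points lie to the right for Ptprb, Vwf, Kdr and Flt1 and to the left for Ly6a, and the red circles of Alt replicate 1 reach far left for Myl9, Sox17, Ly6c1 and Ly6a.

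The differences of the 39 genes varied with gene length. Length was not named in the rule, but the genes were chosen with these differences in view, which vary with length over the whole table too, so the values are a description. Differences between Alt and Ctr were positive for most long genes and negative for most short ones. Split at the median of all genes tested, 4051 bases, the 22 longer genes had a median of 0.30 (18 positive, 7 with an unadjusted p under 0.05 and higher, none lower), and the 17 shorter genes a median of -0.19 (6 positive, none with an unadjusted p under 0.05 and higher, 1 lower). Over all genes tested the medians were 0.12 for longer and -0.26 for shorter genes. Of all longer genes 61.9% were positive, 16.4% higher and 4.6% lower at that p, and of all shorter genes 34% were positive, 2.52% higher and 16.1% lower. Vwf (16064 bases), Flt1 (13504), Ptprb (13333) and Kdr (9030) are the longest members, while Myl9 (1162) and Ly6a (1205) are the shortest. Over the 39 genes, which share libraries, Pearson's r between the log2 fold change and log2 length was 0.736 (Spearman's rho 0.660) for Alt vs Ctr, 0.312 (0.238) for Ref vs Ctr and 0.609 (0.528) for Alt vs Ref. Over all 17254 genes r was 0.197, 0.0329 and 0.175.

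The split was strongest in Alt replicate 1. Relative to the Ctr mean, shorter genes over the whole table stood at -0.42 in that library and -0.12 in the other Alt library, and the shorter members at -0.31 and 0.03. The longer members stood at 0.39 and 0.29, in the same order.

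A correction for length was fitted in each library over all genes. Over all genes r was then 0.0266 in Alt vs Ctr and -0.00515 in Alt vs Ref, both nearer to 0 than before. In Ref vs Ctr it was 0.0495, slightly larger than before. Over the 39 genes r was 0.392 in Alt vs Ctr, 0.352 in Ref vs Ctr and 0.147 in Alt vs Ref. A relation with length thus remained among the members and was slightly larger in Ref vs Ctr than without the correction. The longest members were lowered, while some just above the median length, such as Tek (0.38 ± 0.20 to 0.41 ± 0.19) and Rgs5 (0.32 ± 0.16 to 0.38 ± 0.15), were raised. The receptor medians in Alt went from 0.45 and 0.49 to 0.36 and 0.47. The median of the longer members went from 0.30 to 0.27 and that of the shorter ones from -0.19 to 0.10. After it, 10 members had an unadjusted p under 0.05 and were higher in Alt than in Ctr (7.41% of all genes) and 1 was lower (8.99%). Ptprb differed by 0.73 ± 0.15, Vwf by 0.67 ± 0.15, Kdr by 0.63 ± 0.27, Abcb1a by 0.57 ± 0.16 and Ly6a by -0.49 ± 0.22. Of the 8 genes with such a p before it Flt1 alone was lost, and Tek, Slc2a1, Fli1 and Rgs5 were gained. The correction assumes that length is not itself related to the effect of the vector, and that was not tested.

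**Figure D4:**
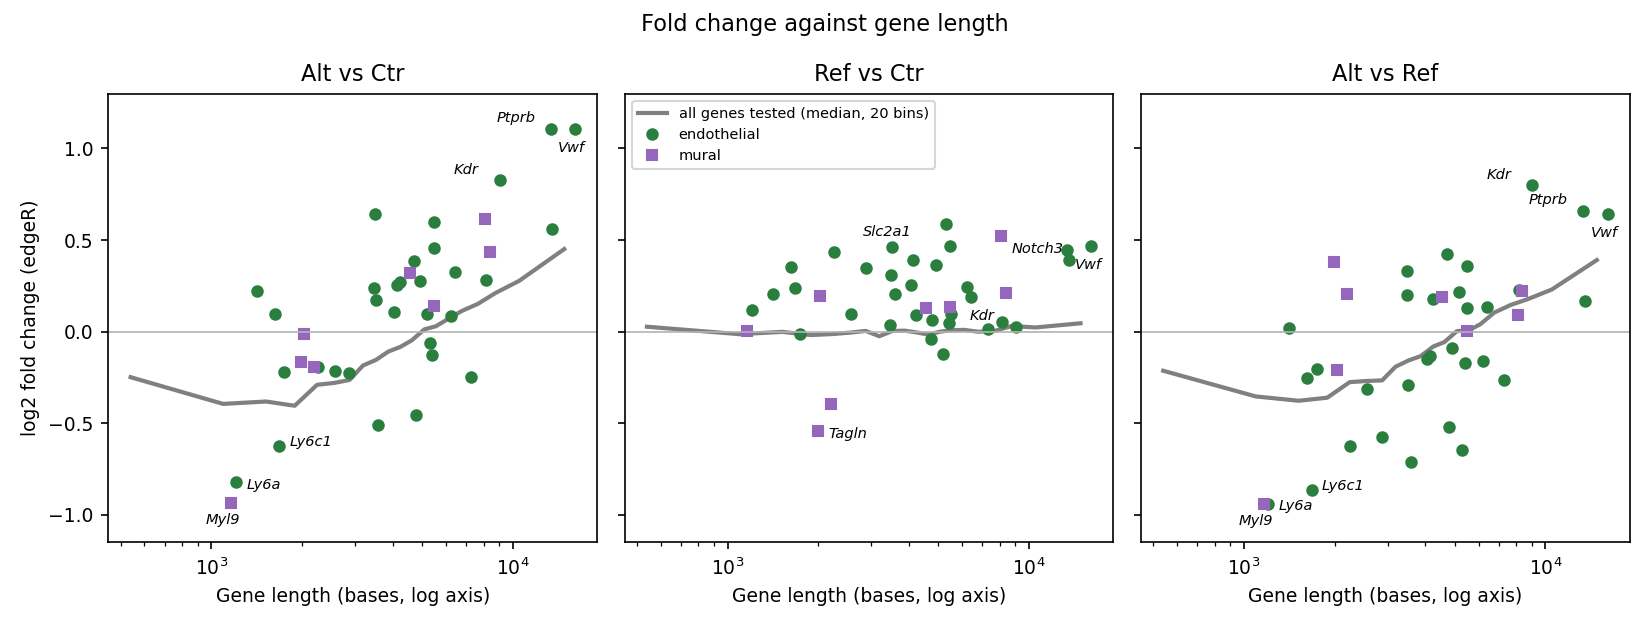
Log2 fold change (edgeR) against gene length in bases (log axis) for the 31 endothelial (green) and 8 mural genes (purple) in each comparison, with the median of all genes tested in 20 length bins as a grey line. In Alt vs Ctr and Alt vs Ref both the members and the grey line climb with length from Myl9 and Ly6a to Ptprb and Vwf, and in Ref vs Ctr the line is flat.

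**Figure D5:**
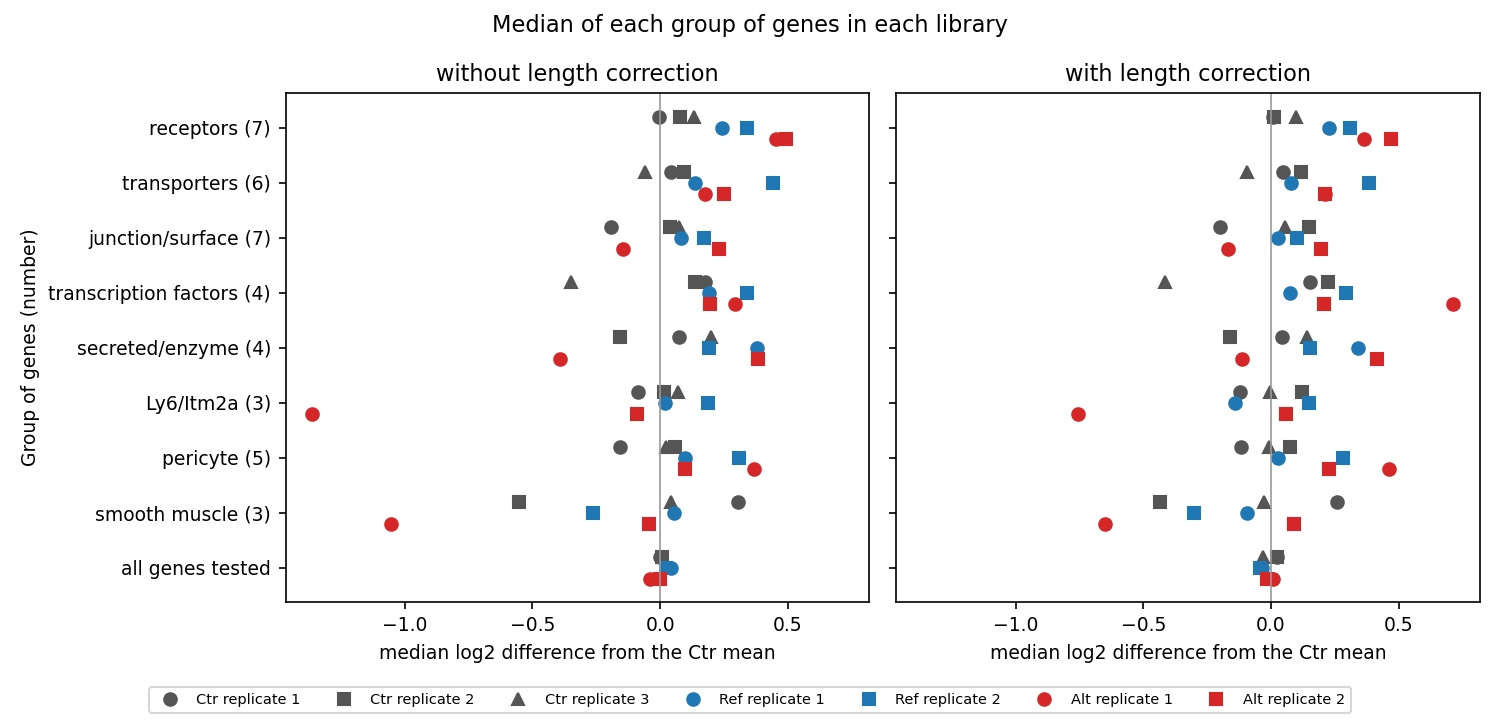
Median log2 difference from the Ctr mean over each group of genes in each library, without (left) and with (right) the length correction. The receptor medians of Alt (0.45 and 0.49) stay to the right of Ctr on both sides, and the low Ly6/Itm2a and smooth muscle medians of Alt replicate 1 (-1.36 and -1.06) move to -0.76 and -0.65 with the correction, while the Ly6/Itm2a median of Alt replicate 2 goes from -0.09 to 0.06.

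In Ref compared with Ctr, most vascular genes had a small positive difference, and few passed an unadjusted p of 0.05. Differences were positive for 34 of 39 genes (28 of 31 endothelial and 6 of 8 mural), beside 50.8% of all genes, with a median of 0.20 against 0.01 over all genes tested. With the length correction 28 of the 39 were positive, beside 41.8% of all genes. The libraries did not overlap for 13 genes that were higher in Ref (12.4% of all genes) and for none that were lower (10.5%, and 22.9% in either direction). Unadjusted p was under 0.05 for 5 genes that were higher (2.19% of all genes), namely Flt1, Slc2a1, Abcb1a, Vwf and Notch3, and for none that were lower (0.945%). No gene of the table passed an FDR of 0.05 in edgeR, 541 genes (3.14%) had an unadjusted p under 0.05, and DESeq2 called 6 genes (0.0348%), none a member. The comparison shares its Ctr libraries with Alt vs Ctr, so the differences in Ref and in Alt are not separate evidence.

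The Ref libraries were close to each other for some genes and apart for others. Vwf was 51.6 and 64.3 CPM in Ref and 33.8, 44.2 and 47.9 in Ctr, and Ptprb was 102 and 137 in Ref, where the lower Ref library was inside the Ctr range. Slc2a1 differed by 0.46 ± 0.17, with both Ref libraries close together. Robo4 had the largest difference at 0.59 ± 0.37, and the claudin Cldn5 0.20 ± 0.36. Tek and Kdr were level with Ctr (-0.04 ± 0.20 and 0.03 ± 0.27), and Slco1c1 had its lowest and highest values in Ref (45.5 and 95.2 CPM). The number with an unadjusted p under 0.05 was 1 without Ref replicate 2 (a lower gene, none of the 5 named), 2 without Ctr replicate 1, and 8 without either Alt library, where 1.25%, 2.06% and, for the Alt libraries, 5.51% and 5.52% of all genes had such a p. With the length correction it was 6, all higher, where 5.15% of all genes had such a p, 1.92% higher and 3.23% lower. The gap between endothelial (0.21) and mural (0.13) medians was 0.07, and -0.03 without Ctr replicate 2.

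In Alt compared with Ref, which holds the 2 alleles side by side, the genes went both ways. There were 20 positive and 19 negative differences with a median of 0.00 (-0.04 over all genes tested). Kdr, Ptprb and Vwf were higher in Alt and Esam, Mfsd2a, Ly6a and Ly6c1 lower, each with an unadjusted p under 0.05, which 6.71% of all genes had for higher and 8.83% for lower values. The libraries did not overlap for 6 genes that were higher (21.6% of all genes) and 11 that were lower (26.1%, and 47.7% in either direction). Of all genes, 1 passed an FDR of 0.05 in edgeR (0.0058%) and 2680 (15.5%) an unadjusted p of 0.05, and DESeq2 called 449 of the 8222 genes with an adjusted p (5.46%), none a member.

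The differences between the alleles were 0.80 ± 0.30 for Kdr, 0.66 ± 0.24 for Ptprb and 0.64 ± 0.21 for Vwf. They were -0.58 ± 0.23 for the junction gene Esam (13.2 and 11.8 CPM in Alt and 17.6 and 19.8 in Ref), -0.62 ± 0.23 for Mfsd2a, -0.94 ± 0.29 for Ly6a and -0.86 ± 0.34 for Ly6c1. All 4 lower genes are shorter than the median gene and all 3 higher ones are longer. With the length correction 3 members had an unadjusted p under 0.05, all higher (7.43% of all genes): Kdr (0.67 ± 0.30), Podxl (0.40 ± 0.16) and Tek (0.51 ± 0.21). None was lower (5.58%). Endothelial and mural medians were -0.13 and 0.14, without Alt replicate 1 they were 0.09 and -0.10, and without Ref replicate 1 the mural median was -0.06. The gap between the lists thus turned from -0.27 to 0.19 with Alt replicate 1 left out. The number of members with an unadjusted p under 0.05, 7 in the full fit, was 1 without Ref replicate 1 and 16 without Alt replicate 2. Over all genes the share with such a p moved with it, from 15.5% to 4.19% and 28.9%.

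Further vascular and pathway genes, which are no members, were read from the same fit, and 57 had a positive difference between Alt and Ctr. Of 94 such genes 93 were tested, since Selp, an adhesion molecule of venules, was at 0 in 6 libraries and at 3 counts in the other. Between Alt and Ctr 14 were higher and 4 lower at an unadjusted p under 0.05, against 9.45% and 10.3% of all genes. The median of the 93 genes was 0.14, and none passed an FDR of 0.05 in edgeR. DESeq2 called 9 of them, beside 9.44% of the genes to which it gave an adjusted p. With the length correction 20 were higher and 1 lower (7.41% and 8.99%). Adgrf5, an adhesion receptor of endothelium, measured 63.4, 77.8 and 81.1 CPM in Ctr, 87.6 and 127 in Ref and 155 and 130.00 in Alt (0.94 ± 0.19). Cspg4, the pericyte proteoglycan NG2 that oligodendrocyte precursors also make, measured 15.5, 15.8 and 23.8 CPM in Ctr, 32.9 and 27 in Ref and 38.1 and 37.3 in Alt (1.04 ± 0.22). For both genes every Ref and Alt library lay above every Ctr library. The junction scaffold Tjp1 differed by 0.58 ± 0.17 and the adrenomedullin receptor partner Ramp2 by -1.08 ± 0.33, with 4.68 and 9.87 CPM in Alt and 16.8, 11.5 and 18 in Ctr. Adjusted p of these 4 genes by edgeR with Benjamini-Hochberg adjustment was 0.120 to 0.129. As with the members, all 14 higher genes were longer than the median gene and all 4 lower ones shorter.

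All 5 genes of the Notch list had a positive difference between Alt and Ctr (47.9% of all genes), or 4 of 5 with the length correction (49%). The median length of the list is 8061 bases, and of all genes longer than the median gene 61.9% were positive without the correction. Of Notch1, Notch2, Notch4, Heyl and Hes1, 3 were higher in Alt than in Ctr at an unadjusted p under 0.05 and none lower (median 0.84), beside 9.45% and 10.3% of all genes. The list median rested on Alt replicate 1, at 1.20 from the Ctr mean, since Alt replicate 2, at 0.25, lay inside the Ctr range of -0.04 to 0.29. Notch1 measured 27.1, 33.3 and 43.2 CPM in Ctr, 46.2 and 57.4 in Ref and 78 and 57.2 in Alt (0.97 ± 0.22), Notch2, where Alt replicate 1 was far above replicate 2, 23.8, 24.8 and 31 CPM in Ctr, 37 and 38.3 in Ref and 63.5 and 31.3 in Alt (0.84 ± 0.26), and the target gene Heyl, active in mural cells, 7.10, 4.18 and 5.25 CPM in Ctr, 5.95 and 5.64 in Ref and 13.9 and 8.09 in Alt (0.99 ± 0.33). Their adjusted p by edgeR with Benjamini-Hochberg adjustment was 0.120 to 0.148. Neurons and astrocytes also express Notch receptors, and with the length correction the list median was 0.52. Of 14 genes of the barrier Wnt pathway (Fzd4, Lrp6, Lef1, Apcdd1 and others) none had an unadjusted p under 0.05 in any comparison, with medians of 0.11, 0.08 and -0.08. Of 13 angiogenic ligands, the Notch ligand Jag1 was higher (0.66 ± 0.23) and Vegfb lower (-0.58 ± 0.20) in Alt than in Ctr, with edgeR adjusted p of 0.158 and 0.160, and with the length correction the unadjusted p of Vegfb was no longer under 0.05.

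Between Ref and Ctr 6 of the 93 genes were higher and none lower at an unadjusted p under 0.05 (2.19% and 0.945% of all genes). They were Cspg4 (0.71 ± 0.22), Adgrf5 (0.54 ± 0.19), the efflux pump Abcc4 (0.66 ± 0.24), Notch1 (0.59 ± 0.22), the Notch target Hes1 (0.67 ± 0.26) and the junction gene Cgnl1 (0.59 ± 0.26), each with an edgeR adjusted p of 1. Between Alt and Ref 5 were higher and 6 lower (6.71% and 8.83%), and with the length correction 6 were higher and 1 lower (7.43% and 5.58%). The smallest p values were those of Vegfb (-0.77 ± 0.22), Ramp2 (-1.22 ± 0.35), the complement response gene Rgcc (-0.80 ± 0.24), the transporter chaperone Bsg (-0.59 ± 0.20), the venous factor Nr2f2 (0.72 ± 0.25) and the peptide ligand Apln (-0.71 ± 0.25), with edgeR adjusted p of 0.236 to 0.245. Of these 6, Ramp2 and Nr2f2 alone had an unadjusted p under 0.05 with the length correction.

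Markers of other cells moved with the groups, and their part in the vascular values was not tested. For oligodendrocytes 10 of 10 markers had a positive difference between Ref and Ctr, 8 of them at an unadjusted p under 0.05 (2.19% of all genes), with a median of 0.78. Between Alt and Ref all 10 were negative, 7 of them at such a p (8.83% of all genes). Oligodendrocyte markers summed to 2362 to 3294 CPM in Ctr, 3978 and 4922 in Ref, and 2286 and 2845 in Alt. Leptomeningeal fibroblast genes summed to 155 to 193 CPM in Ctr, 186 and 189.7 in Ref and 248 and 254 in Alt, with 4 of 10 higher in Alt than in Ctr at an unadjusted p under 0.05 (9.45% of all genes), namely Col1a1, Col1a2, Slc47a1 and Pdgfra, the last of which oligodendrocyte precursors also express. Col1a1 and Slc47a1 kept such a p with the length correction, and Col1a2 and Pdgfra did not. Perivascular macrophage genes summed to 15.6 to 15.9 CPM in Ctr and to 19.6 and 38.9 in Alt, where Mrc1 and Cd163 were high in Alt replicate 2, the library with the higher Cldn5. Blood genes summed to 82.9 and 94.1 CPM in Alt against 101 to 152 in Ctr, with a median log2 fold change of -0.32, or 0.07 with the length correction, and 1 of 5 lower at an unadjusted p under 0.05, none with the correction.

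Astrocyte, neuron and microglial genes went both ways between Alt and Ctr, where 9.45% of all genes were higher and 10.3% lower at an unadjusted p under 0.05, or 7.41% and 8.99% with the length correction. Astrocyte genes summed to 5467 to 7083 CPM in Ctr, 7454 and 8991 in Ref and 8168 and 11417 in Alt, and most of the Alt sum was the glutamate transporter gene Slc1a2 (9528 and 5964 CPM against 3484, 4827 and 4476 in Ctr). The astrocyte median was 0.10, with 5 of 9 positive, Slc1a2 higher and S100b (-0.68 ± 0.21) and Aldoc (-0.43 ± 0.20) lower at an unadjusted p under 0.05. With the length correction the median was -0.08, with 3 of 9 positive, and Slc1a2 alone had such a p. Neuron genes summed to 9360.4 to 9869 CPM in Ctr, 9211 and 9923 in Ref and 10424 and 10612 in Alt, while their median was -0.14, with 6 of 10 negative, 2 higher and 1 lower at that p, or -0.02 with 1 higher and 2 lower with the correction. Microglial genes summed to 488 to 560.0 CPM in Ctr, 592 and 597 in Ref and 481 and 531 in Alt, with a median of -0.10, where the complement genes C1qa (-1.09 ± 0.29), C1qb (-0.81 ± 0.27) and C1qc (-0.65 ± 0.23) were lower and Cx3cr1 (0.36 ± 0.15) higher at that p. With the correction the microglial median turned to 0.08 and C1qc lost its call, while C1qa, C1qb and Cx3cr1 kept theirs. Choroid plexus genes stayed at 2.79 to 7.15 CPM in sum, with Ttr at 0 to 4 counts in a library. Between Ref and Ctr the differences were positive for 7 of 9 astrocyte, 7 of 9 microglial and 3 of 10 neuron genes, beside 50.8% of all genes. At an unadjusted p under 0.05, 3 astrocyte genes and 1 microglial gene were higher and none lower (2.19% and 0.945% of all genes).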

How the data were processed

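RNA-seq of the PFC of female mice was analysed in 7 libraries, grouped by their labels into 3 Ctr, 2 Ref and 2 Alt. The authors deposited raw read counts by gene in a single table, together with TPM and FPKM values computed from the counts and the gene length. Libraries were made from poly(A) RNA, and the submitters' processing notes name STAR and featureCounts without versions. The only build they name is hg19, a human build, although the gene identifiers are those of mouse, so no gene coordinates are taken from the table. Coordinates are given only for promoter windows of RefSeq on GRCm38.p6.

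Counts were tested in R 4.3.3 with edgeR 4.0.16 (TMM, filterByExpr by group, glmQLFit, glmQLFTest on group means of all 7 libraries), with Benjamini-Hochberg adjustment over 17254 genes. The study treated Ctr, Ref and Alt as an ordered variable, and the linear term of such a factor has the same p as Alt vs Ctr. SEs are the absolute log2 fold change over the square root of F. The length correction was a loess fit (span 0.3) of each library's log2 CPM (prior count 2) deviation on log2 length, entered as offsets. DESeq2 1.42.0, limma 3.58.1 (as a dependency of edgeR), RLE factors, no filter, a replicate block, fits of the compared groups alone and leaving out each library were the alternatives. The scripts were tested on simulated data. TPM were used for levels between genes and FPKM were not used.

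All 39 genes are named, and of 94 further vascular and pathway genes the 6 with the smallest p in each comparison, beside counts for each list and a few genes (Heyl, Jag1, Vegfb and markers of other cells) picked after their values were seen. The members and all lists were chosen with earlier results of these data known. Depth of 16655697 to 20750857 counts limits genes such as Tagln.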

Additional observations from a re-analysis of the deposited data

How the results depend on the processing

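The direction of the endothelial median was the same as in the full fit for each alternative, except in Alt vs Ctr without Alt replicate 2 (-0.026) and in Alt vs Ref without Alt replicate 1 (0.087, or 0.086 with the length correction as well). Leaving out 1 library at a time, the endothelial median ranged from -0.026 to 0.21 in Alt vs Ctr, 0.19 to 0.31 in Ref vs Ctr and -0.31 to 0.087 in Alt vs Ref. The mural median ranged from 0.057 to 0.17, 0.025 to 0.22 and -0.099 to 0.18, and the gap between the lists from -0.092 to 0.12, -0.030 to 0.18 and -0.49 to 0.19. Members with an unadjusted p under 0.05 numbered 7 to 17, 1 to 8 and 1 to 16, and further and pathway genes 15 to 24, 1 to 10 and 5 to 20. The extremes came from leaving out Alt replicate 2 (17 members, 10 of them lower, in Alt vs Ctr, and 16 in Alt vs Ref), Ref replicate 2 (1 member and 1 further gene in Ref vs Ctr), Ref replicate 1 (1 member in Alt vs Ref) and either Alt library (8 members and 10 further genes in Ref vs Ctr). The whole table moved with these counts, since the share of all genes with such a p was 33.2% and 28.9% without Alt replicate 2, 1.25% without Ref replicate 2 and 4.19% without Ref replicate 1, against 19.8%, 15.5%, 3.14% and 15.5% in the full fit. With 1 library left in a group, that library is assumed to vary like the other groups.

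Over all genes, calls at an FDR of 0.05 were 0, 0 and 1 in edgeR, 1123, 6 and 449 in DESeq2, 1484, 40 and 850 with no filter on low counts, and 0 to 3451, 0 to 5 and 0 to 2708 when a library was left out, the highest without Alt replicate 2. RLE factors and fits of the compared groups alone gave 0 in Alt vs Ref. Members that passed that FDR numbered 7 in Alt vs Ctr and 3 in Alt vs Ref with no filter, beside 1484 and 850 of 26895 genes. In DESeq2 they numbered 5 and 0, beside 9.44% and 5.46% of the genes with an adjusted p. Fits of the compared groups alone put the mural median at 0.15 in Alt vs Ctr and 0.10 in Alt vs Ref.

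The length correction put the mural median at 0.19 and the gap at 0.017 in Alt vs Ctr, and the mural median at 0.075 in Ref vs Ctr. In Alt vs Ref it put the endothelial median at -0.0071 and the gap at -0.14. There 3 members and 7 further genes had an unadjusted p under 0.05, beside 13% of all genes. Together with leaving out Alt replicate 1, an alternative chosen after seeing the data, it gave a mural median of 0.14 and 5 genes at an FDR of 0.05 in Alt vs Ctr, 0.067 and 7 genes in Ref vs Ctr, and in Alt vs Ref an endothelial median of 0.086, a mural one of 0.032, a gap of 0.054, 3 members, 4 further genes and 6 genes at that FDR. The cause of these shifts was not tested. Of the members' own log2 fold changes under the alternatives, 132 moved by more than the spread between replicates and 1495 by less.

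Replicate numbers of the labels were taken as names. Between groups, libraries that share a number had correlations of -0.0984 to 0.0702 in their deviations from the group mean. In a group of 2 the libraries deviate by equal and opposite amounts, so few of these values are independent and they cannot decide the point. With the replicate number as a block, 2 members had an unadjusted p under 0.05 in Ref vs Ctr in place of 5, beside 2.49% of all genes in place of 3.14%. With the block no gene passed the FDR in Alt vs Ref. Genes of the whole table with an unadjusted p under 0.05 went from 3414 to 2180 in Alt vs Ctr and from 2680 to 1554 in Alt vs Ref.

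Groups of 2 and 3 libraries limit what can be called, and genes with few counts, Tagln among the members, could not be compared at this depth.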
